A study of Homo sapiens with 8 samples.

Results

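Interferon-stimulated genes are the antiviral genes that cells switch on in answer to interferon, and 45 of them were followed here in human triple-negative breast cancer cells. They were chosen by symbol, from the names given beside the gene identifiers in the deposited tables, out of 61552 genes listed. Of the 45 genes, 43 had enough reads to be tested, among 15923 tested genes in all. RNA was sequenced from MDA-MB-231, an established line from a metastasis of a triple-negative breast cancer, called parental below, and from its derivative MDA231-LM2, selected in mice for growth in lung and called LM2 below. The 4 groups were parental cells with hairpin number 3 against TAF7 (shTAF7), parental cells with a control hairpin, LM2 cells with the same TAF7 hairpin and LM2 cells with a control hairpin. Each group had 2 libraries, which the titles number 2 and 3. TAF7 is one of the proteins of TFIID, a complex that helps place RNA polymerase II at promoters. The labels name no interferon, virus or other stimulus for any group. One TAF7 hairpin was used, so an effect of that hairpin on other transcripts cannot be told apart from an effect of lower TAF7, and the labels do not say whether the hairpin lines are clones or pools. Nor is it stated that the paired libraries came from separate cultures, so the p-values measure only the spread between these libraries.

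Type I interferons bind the receptor chains IFNAR1 and IFNAR2, and type III interferons bind IFNLR1 and IL10RB. The kinases JAK1 and TYK2 then phosphorylate STAT proteins, and STAT2 takes part with IRF9 in a complex called ISGF3. ISGF3 enters the nucleus and binds a short promoter sequence, the interferon-stimulated response element, in front of these genes. Their products sense viral RNA or DNA, block viral entry or translation, degrade RNA or feed back on the pathway. In cancer cells many of the same genes are also expressed at a steady level without added interferon.

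Promoter windows of these genes were read from RefSeq (build GRCh38.p14), which held 35 of the 45, and were searched for GAAANNGAAA, the core repeat of the response element, on both strands (TTTCNNTTTC on the other), with overlapping matches counted separately. A window runs from 250 bases before to 50 bases after the annotated start. The motif was present for 24 of the 35 genes (68.6%), against 1195 of 27305 genes (4.38%) in the whole table. A match is a description of the letters and not a site in use. The 8 sequences below belong to genes that recur in the results. Each is 180 bases on the gene's strand, ending 10 bases after a start that RefSeq annotates, with the motif in capitals. IFIT3 and IFI44 have 2 windows each, and the one further along the chromosome is shown. ISG15 stands for the classical pattern, IFIT1, IFIT3, IFIH1 and IFI44 for genes that moved in opposite directions in the lines, BST2 for a gene that differed between the lines, IFIT5 for an IFIT gene outside the pattern, and EIF2AK2 for a gene with no call on the TAF7 hairpin in either line.
ISG15, chr1:1013327-1013506, plus strand: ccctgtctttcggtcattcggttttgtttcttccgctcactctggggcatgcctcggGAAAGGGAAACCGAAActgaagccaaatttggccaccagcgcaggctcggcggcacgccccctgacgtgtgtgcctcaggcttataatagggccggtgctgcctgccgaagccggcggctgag
IFIT1, chr10:89392453-89392632, plus strand: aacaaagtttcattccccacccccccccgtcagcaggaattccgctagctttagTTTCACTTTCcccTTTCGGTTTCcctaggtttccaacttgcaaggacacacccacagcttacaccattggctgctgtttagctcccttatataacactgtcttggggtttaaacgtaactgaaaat
IFIT3, chr10:89332359-89332538, plus strand: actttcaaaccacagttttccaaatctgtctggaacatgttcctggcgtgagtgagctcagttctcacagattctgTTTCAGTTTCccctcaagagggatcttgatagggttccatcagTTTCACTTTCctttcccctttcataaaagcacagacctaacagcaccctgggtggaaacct
IFIH1, chr2:162318675-162318854, minus strand: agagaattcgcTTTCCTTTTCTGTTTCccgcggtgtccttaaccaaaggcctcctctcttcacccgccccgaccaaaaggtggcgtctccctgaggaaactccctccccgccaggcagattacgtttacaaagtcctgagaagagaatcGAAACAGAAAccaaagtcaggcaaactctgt
IFI44, chr1:78649661-78649840, plus strand: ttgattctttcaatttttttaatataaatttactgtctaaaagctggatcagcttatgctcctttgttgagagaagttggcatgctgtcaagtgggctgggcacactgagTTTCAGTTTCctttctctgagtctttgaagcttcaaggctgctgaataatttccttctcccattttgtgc
BST2, chr19:17405621-17405800, minus strand: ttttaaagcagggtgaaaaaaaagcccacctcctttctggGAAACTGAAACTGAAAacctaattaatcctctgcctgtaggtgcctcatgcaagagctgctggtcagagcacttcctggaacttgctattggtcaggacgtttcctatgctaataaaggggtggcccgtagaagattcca
IFIT5, chr10:89414398-89414577, plus strand: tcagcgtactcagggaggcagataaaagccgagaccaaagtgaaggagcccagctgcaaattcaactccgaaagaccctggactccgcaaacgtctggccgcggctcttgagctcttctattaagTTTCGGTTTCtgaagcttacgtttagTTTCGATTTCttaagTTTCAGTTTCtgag
EIF2AK2, chr2:37156971-37157150, minus strand: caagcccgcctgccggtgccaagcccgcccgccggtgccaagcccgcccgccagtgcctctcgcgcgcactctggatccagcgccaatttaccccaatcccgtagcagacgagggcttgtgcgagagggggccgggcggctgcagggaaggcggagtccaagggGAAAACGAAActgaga
IFIT5 and IFIH1 held 3 matches each in their windows and EIF2AK2 held 1, so the motif was present in genes that behaved differently below. Of the genes with a window that were higher with shTAF7 in parental cells, 14 of 17 held it, against 10 of the 16 that were tested and not called there. Of those that were lower with shTAF7 in LM2, 14 of 21 held it, against 9 of the 11 tested and not called in LM2. OASL, USP18, TRIM22, OAS2, IRF7, GBP2, IFITM2, IFIT2, DHX58 and MX2 had no entry.

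TAF7 itself had 108 and 105 CPM in parental shTAF7 libraries, against 179 and 185 in parental controls. It had 142 and 148 CPM in LM2 shTAF7 libraries, against 195 and 197 in LM2 controls. CPM are counts per 1e6 counted reads, with library sizes scaled as given under the processing. The shTAF7 and control libraries did not overlap in either line, and TAF7 fell to 58.5% of control in parental cells (adjusted p = 4.01e-12, edgeR) and to 74.2% in LM2 (adjusted p = 8.42e-07). Libraries held 17217776 to 20292291 reads assigned to genes, and 1 read was worth 0.0488 to 0.0583 CPM. The LM2 control libraries stood apart, with 24762 and 24490 genes detected against 22296 to 23434 in the other 6 libraries, and the part of this in the results was not tested. Of the defining markers of the labelled line, VIM, CD44, EGFR and KRT18 averaged 13.0 to 407 FPKM in the groups. FPKM are counts per kilobase of gene and per 1e6 counted reads, without that scaling. ESR1 and PGR together had at most 5 reads in a library. Markers of leukocytes summed to 11 to 19 reads per library in LM2 controls and 2 to 12 in LM2 shTAF7. In parental cells they summed to 6 to 7 reads in shTAF7 and 2 to 4 in controls. The 2 markers of plasmacytoid dendritic cells summed to 0 to 2 reads per library in LM2 controls and to 0 in the other groups. Of these, LILRA4 had 0 reads in every library.

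The TAF7 hairpin went with higher levels of many interferon-stimulated genes in parental cells and with lower levels in LM2. In parental cells 21 of the 43 tested genes were higher with shTAF7, 0 were lower and 22 were not called (0 were lower also with DESeq2, and 0 had a negative change at an unadjusted p under 0.05). That is 48.8% higher, where 12.6% of all tested genes were called higher and 12.9% lower. Calls are those of edgeR's quasi-likelihood test at an adjusted p (Benjamini-Hochberg over all 15923 genes) under 0.05. The median log2 fold change of the 43 genes was 0.31, beside 0.0081 for all tested genes. In LM2, 27 of the 43 were lower with shTAF7, 2 were higher and 14 were not called. That is 62.8% lower, where 19.4% of all tested genes were called lower and 21.8% higher, and the median was -0.58 beside -0.016 for all tested genes. With limma on log2(FPKM + 1) the split of all genes in LM2 was 1893 higher and 4014 lower, against 3478 and 3092 with edgeR. The FPKM are scaled to library totals alone. The parental count was 13 higher without control replicate 2, where 926 of all tested genes were called higher in place of 2013. It was 15 without control replicate 3, and 16 with DESeq2.

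The summed level of the 45 genes showed the same order. It was 1270 and 1250 CPM in parental shTAF7 libraries, against 984.3 and 1014 CPM in parental controls. In LM2 it was 1123 and 1222 CPM in shTAF7 libraries, against 1499 and 1502 CPM in controls. LM2 controls were the highest group and parental controls the lowest, with no overlap of shTAF7 and control libraries in either line. IFITM3 alone made up 14.6% to 23.8% of the sum. Without it the sums were 1071 and 1051 CPM in parental shTAF7 against 839.5 and 865.1 CPM in parental controls, and 895.5 and 930.5 CPM in LM2 shTAF7 against 1257 and 1258 CPM in LM2 controls. In bulk RNA, fewer cells expressing a gene and less RNA per cell cannot be told apart.

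**Figure D1:**
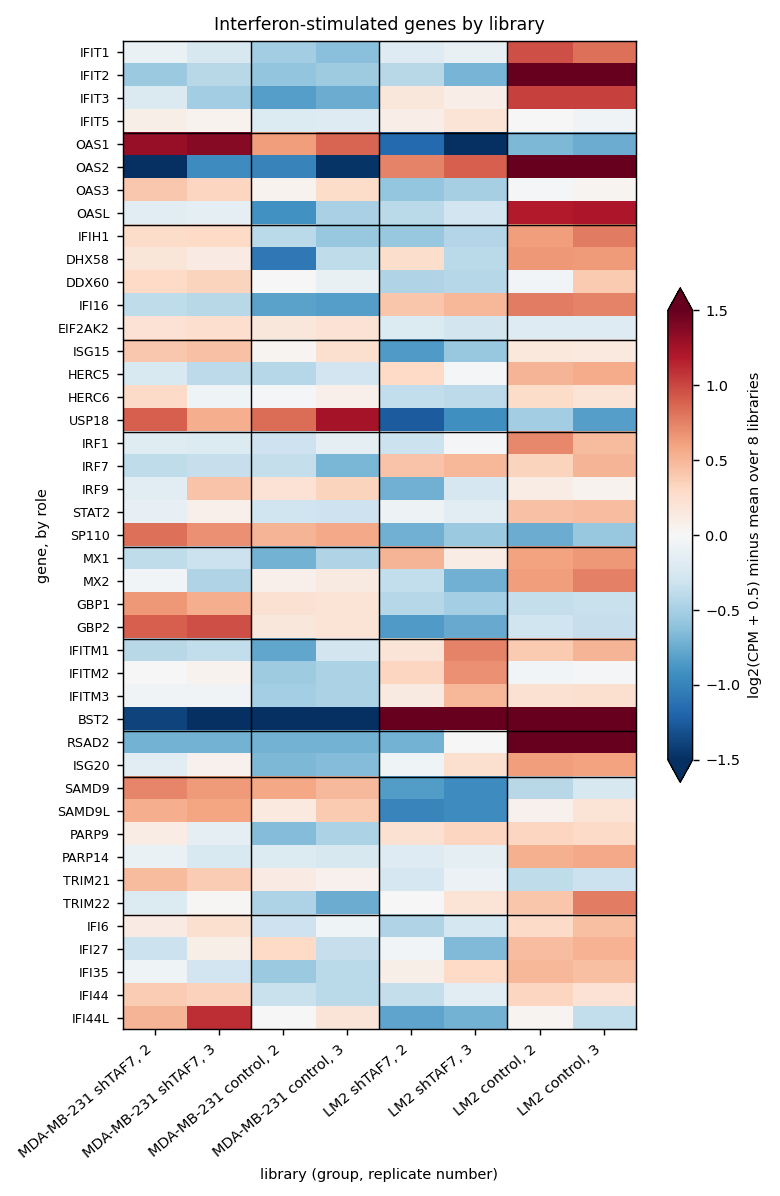
Level of the 43 tested genes in the 8 libraries, as log2(CPM + 0.5) minus the gene's mean over all libraries; columns are libraries by group and replicate number, rows are genes by role, and colours beyond 1.5 in either direction are clipped. Most rows are red in the LM2 control columns, and IFIT2, OAS2, BST2 and RSAD2 reach the end of the scale there.

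Per length of transcript, levels were low to moderate. In LM2 controls the highest mean levels were those of IFITM3 (88.3 FPKM), ISG15 (47.4 FPKM), IFI16 (35.6 FPKM), BST2 (24.1 FPKM) and IFI44 (23.1 FPKM). In parental controls they were those of IFITM3 (52.3 FPKM), ISG15 (46.2 FPKM), IFITM2 (15.8 FPKM), IFI44 (14.5 FPKM) and IFIT5 (11.8 FPKM). RSAD2, CMPK2 and XAF1 had no read in the parental controls. XAF1, which binds the apoptosis inhibitor XIAP, had 1 read in the series, in parental shTAF7 replicate 3.

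The IFIT proteins bind viral RNA ends and stop their translation, and their genes lie side by side on chromosome 10. Among the 4 genes, 3 were higher with shTAF7 in parental cells. In LM2, 3 were lower and 1 was higher. Beside the counts of this and the later role groups, 12.6% of all tested genes were called higher in parental cells. In LM2, 19.4% of all tested genes were called lower and 21.8% higher. IFIT2 had 16.9 and 18.7 CPM in parental shTAF7 and 16.5 and 17.1 CPM in parental controls, against 18.6 and 15.3 CPM in LM2 shTAF7 and 76.3 and 78.3 CPM in LM2 controls. The LM2 controls stood alone, and the other 6 libraries overlapped, so that LM2 shTAF7 cells held 21.9% of the LM2 control level. The log2 fold change for shTAF7 was -2.19 ± 0.094 in LM2 (± SE, adjusted p = 2.08e-24), and 0.087 ± 0.11 in parental cells (adjusted p = 0.608). IFIT1, which recognises the 5′ end of foreign RNA, had 23.4 and 21.3 CPM in parental shTAF7 and 17.4 and 16.1 CPM in parental controls, against 21.9 and 23.2 CPM in LM2 shTAF7 and 49.8 and 45.1 CPM in LM2 controls. Its libraries did not overlap between shTAF7 and control in either line, at 0.41 ± 0.10 in parental cells (adjusted p = 0.00214) and -1.07 ± 0.093 in LM2 (adjusted p = 3.59e-13). IFIT3, a partner that stabilises IFIT1 on RNA, had 39 and 31.6 CPM in parental shTAF7 and 25.5 and 26.9 CPM in parental controls, against 51.4 and 48.8 CPM in LM2 shTAF7 and 93.2 and 93.1 CPM in LM2 controls. It moved like IFIT1, by 0.42 ± 0.091 in parental cells (adjusted p = 0.000402) and by -0.89 ± 0.08 in LM2 (adjusted p = 7.91e-13). IFIT5, which binds RNA as a single protein, had 61.9 and 60.5 CPM in parental shTAF7 and 50.7 and 51.1 CPM in parental controls, against 62.7 and 67.5 CPM in LM2 shTAF7 and 58.5 and 56.2 CPM in LM2 controls. It was higher with shTAF7 in both lines, by 0.27 ± 0.076 in parental cells (adjusted p = 0.00711) and by 0.18 ± 0.075 in LM2 (adjusted p = 0.0451), and the difference between the lines was not called (adjusted p = 0.628). The LM2 call of IFIT5 ended in 11 of 15 alternatives, among them leaving out LM2 shTAF7 replicate 3 (0.14, adjusted p = 0.224). The parental calls ended for IFIT1 without control replicate 3 (0.36, adjusted p = 0.0597), for IFIT3 without shTAF7 replicate 2 (0.26, adjusted p = 0.0511) and for IFIT5 without control replicate 2 (0.26, adjusted p = 0.0933) or 3 (0.27, adjusted p = 0.0735).

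The oligoadenylate synthetases make the second messenger that activates RNase L when they meet double-stranded RNA, and all of them were lower with shTAF7 in LM2. OAS1 and OASL were also higher with shTAF7 in parental cells, which makes 2 of 4. OASL, which lacks the enzyme activity and binds the sensor RIG-I, had 9.27 and 9.46 CPM in parental shTAF7 and 5.36 and 7.38 CPM in parental controls, against 7.82 and 8.55 CPM in LM2 shTAF7 and 24.7 and 25 CPM in LM2 controls. No library of the shTAF7 groups overlapped its control group. The change was 0.56 ± 0.15 in parental cells (adjusted p = 0.00428) and -1.60 ± 0.13 in LM2 (adjusted p = 3.64e-14). OAS1 had 7.58 and 7.90 CPM in parental shTAF7 and 4.52 and 5.48 CPM in parental controls, against 0.949 and 0.581 CPM in LM2 shTAF7 and 1.54 and 1.45 CPM in LM2 controls. Every LM2 library lay below every parental one, and the changes were 0.63 ± 0.19 in parental cells (adjusted p = 0.0112) and -0.97 ± 0.36 in LM2 (adjusted p = 0.0259). OAS2, its neighbour on chromosome 12, had the opposite line pattern, with 0.641 and 1.27 CPM in parental shTAF7 and 1.20 and 0.727 CPM in parental controls, against 5.19 and 5.86 CPM in LM2 shTAF7 and 10.7 and 10.2 CPM in LM2 controls. OAS2 changed by -0.92 ± 0.18 in LM2 (adjusted p = 5.21e-05); the parental libraries overlapped (0.015 ± 0.37, adjusted p = 0.992). OAS3, the largest of the synthetases, had 44.8 and 42.2 CPM in parental shTAF7 and 34.9 and 40.9 CPM in parental controls, against 22.3 and 23.8 CPM in LM2 shTAF7 and 33.4 and 34.7 CPM in LM2 controls. It was lower in LM2 shTAF7 by -0.56 ± 0.094 (adjusted p = 3.87e-06) and not called in parental cells (adjusted p = 0.0903). The parental calls ended without control replicate 2 for OAS1 (0.49, adjusted p = 0.184) and OASL (0.34, adjusted p = 0.237), and for OAS1 without shTAF7 replicate 3 (0.60, adjusted p = 0.0792). The LM2 call of OAS1 ended without shTAF7 replicate 3 (-0.64, adjusted p = 0.254), control replicate 2 (-0.92, adjusted p = 0.0983) or control replicate 3 (-1.01, adjusted p = 0.0638).

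Of the 5 genes for sensors and the kinase PKR, 4 were higher with shTAF7 in parental cells and the same 4 were lower in LM2. IFIH1 (MDA5), the sensor of long double-stranded RNA, had 11.3 and 11.6 CPM in parental shTAF7 and 6.86 and 6.10 CPM in parental controls, against 6.08 and 6.71 CPM in LM2 shTAF7 and 14.5 and 16.3 CPM in LM2 controls. The LM2 shTAF7 libraries lay near the parental controls, and shTAF7 and control did not overlap in either line. IFIH1 changed by 0.82 ± 0.15 in parental cells (adjusted p = 3.04e-05) and by -1.27 ± 0.14 in LM2 (adjusted p = 5.07e-10). DHX58 (LGP2), a regulator of MDA5 without a signalling domain, had 2.57 and 2.44 CPM in parental shTAF7 and 0.780 and 1.57 CPM in parental controls, against 2.74 and 1.53 CPM in LM2 shTAF7 and 3.74 and 3.68 CPM in LM2 controls. At these low counts its changes were 1.10 ± 0.33 in parental cells (adjusted p = 0.0102) and -0.80 ± 0.28 in LM2 (adjusted p = 0.0179). DDX60, a helicase linked to RIG-I signalling, had 12.2 and 12.4 CPM in parental shTAF7 and 9.83 and 9.06 CPM in parental controls, against 7.03 and 7.18 CPM in LM2 shTAF7 and 9.47 and 13 CPM in LM2 controls. Its parental change of 0.38 ± 0.14 passed narrowly (adjusted p = 0.0409), and its LM2 change was -0.66 ± 0.15 (adjusted p = 0.0004). IFI16, a sensor of nuclear DNA, had 82.9 and 81 CPM in parental shTAF7 and 61.6 and 60.8 CPM in parental controls, against 144 and 153 CPM in LM2 shTAF7 and 184 and 181 CPM in LM2 controls. All its LM2 libraries lay above all parental ones, and the hairpin changed it by 0.42 ± 0.072 in parental cells (adjusted p = 1.66e-05) and by -0.30 ± 0.067 in LM2 (adjusted p = 0.000307). EIF2AK2 (PKR), the kinase that stops translation on double-stranded RNA, was not called in either line, with 73.8 to 107 CPM over all libraries. The parental calls ended for DHX58 without control replicate 2 (0.67, adjusted p = 0.259) and for DDX60 without any one of the 4 parental libraries (0.32 to 0.44, adjusted p 0.0922 to 0.241). DHX58 was 1.67, adjusted p = 0.00457 in parental cells without control replicate 3. In LM2, DHX58 was no longer called without shTAF7 replicate 3 (-0.43, adjusted p = 0.336) or control replicate 2 or 3 (adjusted p = 0.0801 and 0.0681), and reached -1.28, adjusted p = 0.00483 without shTAF7 replicate 2. DDX60 was no longer called in LM2 without control replicate 3 (-0.41, adjusted p = 0.0739).

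ISG15 is a ubiquitin-like protein, HERC5 its main ligase, HERC6 a relative and USP18 the protease that removes it. In parental cells 1 of the 4 genes was higher with shTAF7, and in LM2 3 were lower. ISG15 had 47.4 and 48.5 CPM in parental shTAF7 and 36.7 and 42.3 CPM in parental controls, against 19.6 and 23.9 CPM in LM2 shTAF7 and 39.8 and 39.7 CPM in LM2 controls. The 2 control groups overlapped and the TAF7 hairpin groups lay on either side of them, at 0.28 ± 0.087 in parental cells (adjusted p = 0.0133) and -0.87 ± 0.10 in LM2 (adjusted p = 3.05e-10). HERC5 had 16.7 and 14.8 CPM in parental shTAF7 and 14.5 and 16 CPM in parental controls, against 24.2 and 19.2 CPM in LM2 shTAF7 and 28.2 and 29.2 CPM in LM2 controls. Its neighbour HERC6 on chromosome 4 had 17.1 and 13.3 CPM in parental shTAF7 and 13.7 and 14.7 CPM in parental controls, against 10.7 and 10.5 CPM in LM2 shTAF7 and 16.9 and 16.1 CPM in LM2 controls. Both overlapped between the parental groups and were lower with shTAF7 in LM2, HERC5 by -0.41 ± 0.11 (adjusted p = 0.00183) and HERC6 by -0.64 ± 0.13 (adjusted p = 6.4e-05). USP18, with 6.29 to 10.5 CPM in parental and 1.45 to 2.75 CPM in LM2 libraries, was not called with shTAF7 in either line (-0.35 ± 0.17 and -0.51 ± 0.28, adjusted p = 0.15 and 0.143). USP18 has a near-identical copy, USP41, so its level is uncertain. UBA7, the enzyme that activates ISG15, is outside the 45 and was singled out after its values were seen. It had 6.12 and 5.66 CPM in parental shTAF7 and 2.03 and 2.35 CPM in parental controls, against 10.8 and 11.5 CPM in LM2 shTAF7 and 15.2 and 16.5 CPM in LM2 controls, with changes of 1.43 ± 0.20 (adjusted p = 4.27e-07) and -0.51 ± 0.13 (adjusted p = 0.00152). The parental call of ISG15 ended without control replicate 2 (0.18, adjusted p = 0.33) or shTAF7 replicate 3 (0.27, adjusted p = 0.0847), and the LM2 call of HERC5 ended without shTAF7 replicate 3 (-0.24, adjusted p = 0.137).

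Among the 5 transcription factors, STAT2 moved in both lines and IRF1 in LM2. STAT2, the STAT protein that binds IRF9 in ISGF3, had 68.2 and 78 CPM in parental shTAF7 and 60.0 and 59.5 CPM in parental controls, against 70.0 and 66.1 CPM in LM2 shTAF7 and 100 and 103 CPM in LM2 controls. The changes were 0.29 ± 0.076 in parental cells (adjusted p = 0.00293) and -0.58 ± 0.074 in LM2 (adjusted p = 1.37e-08), with no overlap in either. IRF1, an activator of both interferon and its target genes, had 14.8 and 14.6 CPM in parental shTAF7 and 13.6 and 15.2 CPM in parental controls, against 13.5 and 16.6 CPM in LM2 shTAF7 and 28.3 and 23.6 CPM in LM2 controls. Only the LM2 controls of IRF1 stood above the rest, and the LM2 change was -0.79 ± 0.12 (adjusted p = 2.83e-07), while the parental groups overlapped (adjusted p = 0.884). IRF7, the main amplifier of interferon alpha transcription, SP110, a nuclear body protein, and IRF9, the DNA-binding part of ISGF3, were not called with shTAF7 in either line. IRF7 changed by 0.15 ± 0.15 and 0.043 ± 0.13 (parental, then LM2) and SP110 by 0.22 ± 0.10 and 0.018 ± 0.12. IRF9 had 0.279 to 1.22 CPM and is uncertain, since 48.4% of its exon bases also belong to another gene on the same strand in GENCODE 29. Antisense genes overlap 22.0% of the exon bases of IRF1 and 18.4% of those of SP110, and no source used here says whether counting used strand. The parental call of STAT2 ended without shTAF7 replicate 3 (0.19, adjusted p = 0.137) or control replicate 3 (0.28, adjusted p = 0.0519).

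Among the 4 GTPases, the guanylate-binding proteins GBP1 and GBP2 were higher with shTAF7 in parental cells, and GBP2 and MX2 were lower in LM2. GBP2, which coats the vacuoles of intracellular microbes, had 65.9 and 69.2 CPM in parental shTAF7 and 39.6 and 40.7 CPM in parental controls, against 19.3 and 20.5 CPM in LM2 shTAF7 and 28.5 and 27.6 CPM in LM2 controls. Each of the 4 groups held a range of its own. The changes were 0.75 ± 0.08 in parental cells (adjusted p = 8.15e-10) and -0.49 ± 0.093 in LM2 (adjusted p = 2.6e-05). GBP1, the family member that starts the coat, had 77.9 and 72.1 CPM in parental shTAF7 and 58.1 and 57.2 CPM in parental controls, against 36.5 and 34.5 CPM in LM2 shTAF7 and 38.5 and 38.9 CPM in LM2 controls. It changed by 0.38 ± 0.075 in parental cells (adjusted p = 0.00014) and by -0.13 ± 0.083 in LM2, which was not called (adjusted p = 0.225). MX2, a nuclear pore GTPase that restricts HIV, had 2.16 and 1.51 CPM in parental shTAF7 and 2.39 and 2.52 CPM in parental controls, against 1.62 and 1.16 CPM in LM2 shTAF7 and 3.74 and 4.12 CPM in LM2 controls. Its LM2 change was -1.5 ± 0.28 (adjusted p = 2.65e-05), and its parental change of -0.43 ± 0.29 was not called (adjusted p = 0.295). MX1, the cytoplasmic antiviral GTPase, had 4.26 to 5.71 CPM in parental and 7.92 to 11.7 CPM in LM2 libraries and was not called for shTAF7 (0.25 ± 0.18 in parental cells and -0.32 ± 0.15 in LM2). Reads of GBP1 and GBP2 could be shared with the near-identical copies of the family, and no source used here says how the authors' counting treated such reads.

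The membrane restriction factors, the IFITM proteins that block fusion of viral with cell membranes and BST2 (tetherin) that holds budding virus at the surface, were the one group in which no gene was lower with shTAF7 in LM2. IFITM2 had 35.7 and 36.9 CPM in parental shTAF7 and 24.5 and 25.5 CPM in parental controls, against 44.5 and 57.7 CPM in LM2 shTAF7 and 34.6 and 34.9 CPM in LM2 controls. It was higher with shTAF7 in both lines, by 0.54 ± 0.10 in parental cells (adjusted p = 3.55e-05) and 0.56 ± 0.091 in LM2 (adjusted p = 2.46e-06), and the LM2 value was 0.37, adjusted p = 0.00363 without shTAF7 replicate 3. IFITM3 had 199 and 199 CPM in parental shTAF7 and 145 and 148 CPM in parental controls, against 228 and 291 CPM in LM2 shTAF7 and 242 and 243 CPM in LM2 controls. The parental groups were well apart, at 0.44 ± 0.076 (adjusted p = 2.07e-05), and the LM2 groups overlapped, at 0.10 ± 0.075 (adjusted p = 0.319). BST2 had 2.10 and 1.56 CPM in parental shTAF7 and 1.04 and 0.448 CPM in parental controls, against 27.2 and 30.8 CPM in LM2 shTAF7 and 25.3 and 26 CPM in LM2 controls. All LM2 libraries lay far above all parental ones. With shTAF7 it changed by 1.25 ± 0.33 in parental cells (adjusted p = 0.00327) and by 0.18 ± 0.11 in LM2 (adjusted p = 0.212). The parental call of BST2 rested on 36 and 32 reads in shTAF7 libraries against 20 and 8 in controls, and ended without control replicate 3 (0.79, adjusted p = 0.139) or shTAF7 replicate 2 (1.04, adjusted p = 0.0519), while it was 1.99, adjusted p = 0.0013 without control replicate 2. IFITM1 had 0.208 to 1.53 CPM and was not called for shTAF7. IFITM1 and IFITM2 share 351 exon bases in the annotation and the 3 IFITM genes are close paralogs, so their separate levels are uncertain.

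ISG20, an exonuclease that degrades viral RNA, had 10.6 and 12.5 CPM in parental shTAF7 and 7.33 and 7.44 CPM in parental controls, against 11.4 and 14.2 CPM in LM2 shTAF7 and 18.8 and 18.5 CPM in LM2 controls. It was higher with shTAF7 in parental cells by 0.65 ± 0.14 (adjusted p = 0.000473) and lower in LM2 by -0.54 ± 0.12 (adjusted p = 0.000474). RSAD2 (viperin), which makes a chain-terminating nucleotide, had 0 and 0 reads in parental shTAF7 and 0 and 0 in parental controls, against 0 and 6 in LM2 shTAF7 and 52 and 34 in LM2 controls. Its reads came from LM2 cells alone and chiefly from the LM2 controls. In LM2 RSAD2 fell with shTAF7 to 7.09% of control by edgeR (adjusted p = 1.14e-06), and DESeq2 did not call it (adjusted p = 0.566). Without LM2 shTAF7 replicate 3, which held all 6 reads, RSAD2 is at 0 in that group. CMPK2, the kinase gene beside it on chromosome 2 that supplies its substrate, had 0 reads in every parental library, 2 and 1 in LM2 shTAF7 and 7 and 4 in LM2 controls, too few to test.

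SAMD9 and SAMD9L, neighbours on chromosome 7 that restrict poxviruses and cell growth, were both lower with shTAF7 in LM2 and not called in parental cells. SAMD9L had 16 and 16.6 CPM in parental shTAF7 and 12 and 14.3 CPM in parental controls, against 5.19 and 5.39 CPM in LM2 shTAF7 and 11.3 and 12.6 CPM in LM2 controls. SAMD9 had 66.1 and 61.9 CPM in parental shTAF7 and 59.4 and 55.8 CPM in parental controls, against 21.9 and 20.4 CPM in LM2 shTAF7 and 29.6 and 33.5 CPM in LM2 controls. LM2 shTAF7 libraries were the lowest for both, with changes of -1.18 ± 0.15 for SAMD9L (adjusted p = 1.11e-08) and -0.57 ± 0.093 for SAMD9 (adjusted p = 2.14e-06). PARP14 and PARP9, ADP-ribosylation genes on chromosome 3, did not move together. PARP14 had 30.7 and 28 CPM in parental shTAF7 and 28.3 and 27.7 CPM in parental controls, against 28.6 and 29.6 CPM in LM2 shTAF7 and 47.7 and 49 CPM in LM2 controls. Like IFIT2 it was high in the LM2 controls alone, with a change of -0.73 ± 0.086 in LM2 (adjusted p = 1.95e-09) and 0.064 ± 0.09 in parental cells (adjusted p = 0.666). PARP9 had 20.5 and 17.2 CPM in parental shTAF7 and 11.9 and 13.5 CPM in parental controls, against 22.4 and 23.9 CPM in LM2 shTAF7 and 24 and 23.2 CPM in LM2 controls. It was low in the parental controls alone, with a change of 0.57 ± 0.12 in parental cells (adjusted p = 0.000227) and -0.03 ± 0.11 in LM2 (adjusted p = 0.848). TRIM21, the receptor for antibody-coated virus inside cells, was higher with shTAF7 in parental cells by 0.34 ± 0.11 (adjusted p = 0.0146), a call that ended without shTAF7 replicate 2 (0.29, adjusted p = 0.0945), control replicate 2 (0.37, adjusted p = 0.0748) or control replicate 3 (0.30, adjusted p = 0.143). TRIM22, an antiviral ubiquitin ligase, had 0.168 to 1.39 CPM and was not called for shTAF7.

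The last group holds genes named for their induction. IFI44 had 49.5 and 48.1 CPM in parental shTAF7 and 29.8 and 28.5 CPM in parental controls, against 29.4 and 33.7 CPM in LM2 shTAF7 and 47.2 and 44 CPM in LM2 controls. Parental shTAF7 and LM2 controls were high and the other 2 groups low, with changes of 0.74 ± 0.086 in parental cells (adjusted p = 8.51e-09) and -0.53 ± 0.086 in LM2 (adjusted p = 2.23e-06). Its neighbour IFI44L on chromosome 1 had 3.62 and 5.71 CPM in parental shTAF7 and 2.39 and 2.80 CPM in parental controls, against 1.17 and 1.27 CPM in LM2 shTAF7 and 2.48 and 1.73 CPM in LM2 controls. IFI44L changed by 0.86 ± 0.25 in parental cells (adjusted p = 0.00795) and by -0.78 ± 0.33 in LM2, just short of the threshold (adjusted p = 0.0502). The parental call ended without shTAF7 replicate 3 (0.48, adjusted p = 0.326) or control replicate 2 (0.74, adjusted p = 0.103). IFI6, a mitochondrial and endoplasmic reticulum protein that blocks cell death, had 8.16 and 8.88 CPM in parental shTAF7 and 5.93 and 7.10 CPM in parental controls, against 5.30 and 6.12 CPM in LM2 shTAF7 and 9.19 and 10.4 CPM in LM2 controls. It was lower with shTAF7 in LM2 by -0.77 ± 0.16 (adjusted p = 0.000118) and not called in parental cells (0.39 ± 0.16, adjusted p = 0.0651), where shTAF7 and control libraries did not overlap. IFI27, a mitochondrial protein, had 0.467 and 0.780 CPM in parental shTAF7 and 0.988 and 0.448 CPM in parental controls, against 0.670 and 0.264 CPM in LM2 shTAF7 and 1.16 and 1.23 CPM in LM2 controls. Its LM2 change of -1.35 ± 0.51 (adjusted p = 0.0299) was no longer called without LM2 shTAF7 replicate 3 (-0.81, adjusted p = 0.317), control replicate 2 (-1.39, adjusted p = 0.0873) or control replicate 3 (-1.31, adjusted p = 0.117), and was -2.15, adjusted p = 0.0159 without shTAF7 replicate 2. IFI35, a cytoplasmic regulator of RIG-I signalling, was lower with shTAF7 in LM2 by -0.28 ± 0.11 (adjusted p = 0.0374), a call lost without LM2 shTAF7 replicate 2 (-0.19, adjusted p = 0.256), control replicate 2 (-0.26, adjusted p = 0.154) or control replicate 3 (-0.31, adjusted p = 0.0864).

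**Figure D2:**
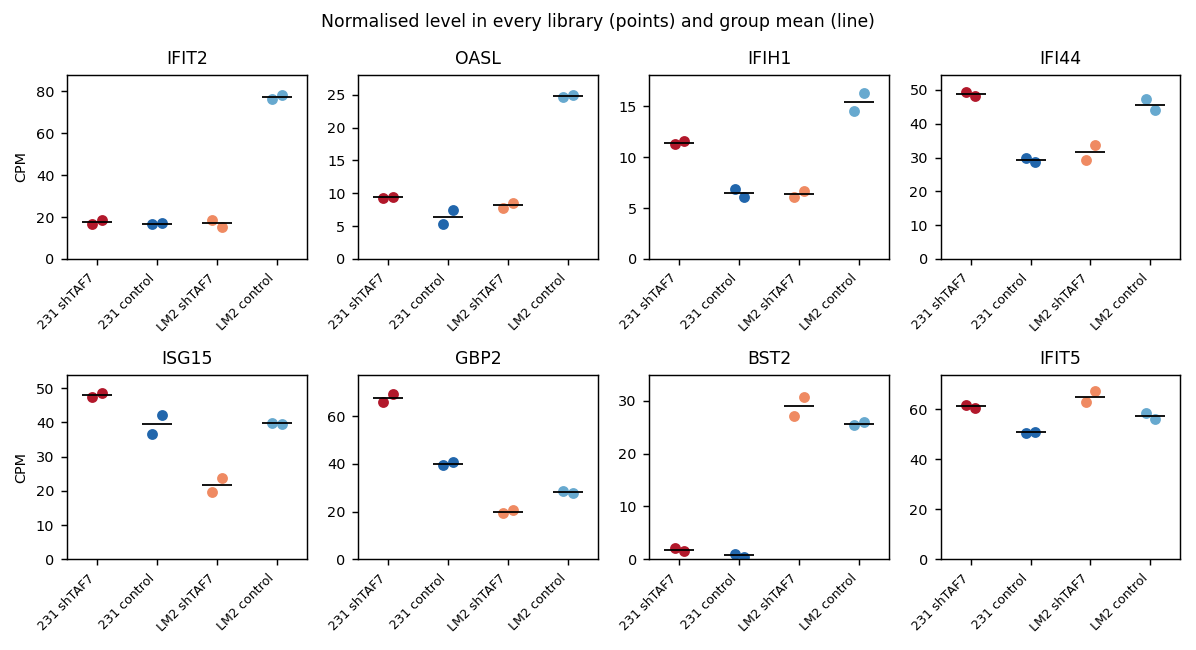
CPM of 8 genes in every library (points) with the mean of each group (line); groups run from parental (231) shTAF7 and control to LM2 shTAF7 and control, and each axis starts at 0. IFIT2 is high in LM2 controls alone. OASL, IFIH1, IFI44, ISG15 and GBP2 move in opposite directions in the lines, and OASL is highest in LM2 controls. BST2 separates the lines, and IFIT5 is higher with shTAF7 in both.

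Taking both lines at once, 13 genes were higher with shTAF7 in parental cells and lower with shTAF7 in LM2. The 2 comparisons share no library. These 13 were IFIT1, IFIT3, OAS1, OASL, IFIH1, DHX58, DDX60, IFI16, ISG15, STAT2, GBP2, ISG20 and IFI44. They are 30.2% of the tested interferon-stimulated genes, beside 305 genes (1.92%) with this combination among all 15923. A further 14 were lower in LM2 without a parental call (IFIT2, OAS2, OAS3, HERC5, HERC6, IRF1, MX2, RSAD2, SAMD9, SAMD9L, PARP14, IFI6, IFI27 and IFI35), which is 32.6% of the tested genes beside 13.4% of all genes. Another 6 were higher in parental cells without an LM2 call (GBP1, IFITM3, BST2, PARP9, TRIM21 and IFI44L), which is 14% beside 4.55% of all genes. IFIT5 and IFITM2 were higher in both (4.65% of the tested genes, beside 6.17% of all genes), 0 were lower in both (beside 4.11% of all genes), and 8 were called in neither (18.6% beside 47.3% of all genes). The count of 13 was 8 without parental control replicate 2 and 10 to 13 without any one of the other libraries; it was 9 with DESeq2 or limma on log2(FPKM + 0.1), 8 with limma on log2(FPKM + 1), 12 without the low-count filter, 13 with RLE size factors, 14 with only the 4 libraries of each comparison and 15 with the replicate block.

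The difference between the hairpin effects was tested directly as the LM2 change minus the parental change. It was called for 29 of the 43 genes, all negative (67.4%), and 0 were positive at an unadjusted p under 0.05 or with DESeq2, where 11.9% of all tested genes were called negative and 13.9% positive. With limma on log2(FPKM + 1) the split of all genes was 998 positive and 2096 negative, against 2221 and 1892 with edgeR. The median difference was -0.87, beside -0.0026 for all tested genes, and 42 of 43 differences were below 0, the exception being IFITM2 (0.019 ± 0.13, adjusted p = 0.945). The largest differences that were called were those of IFIT2 (-2.28 ± 0.14, adjusted p = 1.48e-17), OASL (-2.16 ± 0.20, adjusted p = 6.12e-12) and IFIH1 (-2.08 ± 0.20, adjusted p = 2.95e-11). The smallest were those of IFITM3 (-0.34 ± 0.11, adjusted p = 0.0129), HERC5 (-0.45 ± 0.16, adjusted p = 0.032) and GBP1 (-0.51 ± 0.11, adjusted p = 0.000514). TAF7 itself fell less in LM2 than in parental cells, with a difference of 0.34 ± 0.10 (adjusted p = 0.00544). Not called were IFIT5, OAS2, EIF2AK2, USP18, IRF7, IRF9, SP110, MX1, IFITM1, IFITM2, RSAD2, TRIM21, TRIM22 and IFI27. The calls of HERC5, MX2, BST2 and IFITM3 each depended on single libraries, with values given under the dependence on the processing.

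**Figure D3:**
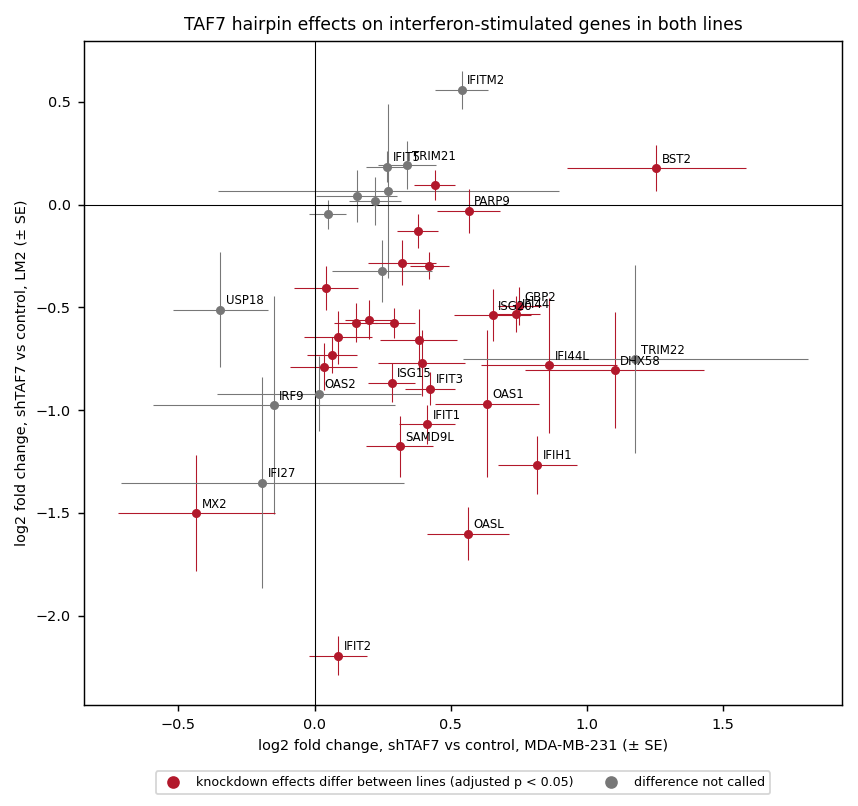
Log2 fold change of shTAF7 against control in parental MDA-MB-231 (horizontal axis) and in LM2 (vertical axis), with standard errors, for 42 tested genes; RSAD2, with no parental read, is left out. Red genes are those whose hairpin effects differed between the lines at an adjusted p under 0.05, and most lie to the right of 0 on the horizontal axis and below 0 on the vertical axis.

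The lines themselves were compared within each hairpin. With the control hairpin, 27 of the 43 genes were higher in LM2 than in parental cells, 8 were lower and 8 were not called. That is 62.8% higher and 18.6% lower, where 32.2% and 32.1% of all tested genes were called higher and lower. With the TAF7 hairpin, 13 were higher in LM2, 17 were lower and 13 were not called, which is 30.2% and 39.5%, where 30.9% and 31.6% of all tested genes were called higher and lower. The median line difference was 0.73 with the control hairpin and -0.19 with the TAF7 hairpin. Those comparisons share no library with each other, but each shares libraries with both hairpin comparisons. The median with the TAF7 hairpin was -0.076 without parental shTAF7 replicate 3 and -0.048 without LM2 shTAF7 replicate 3.

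BST2 had the largest line difference among the tested interferon-stimulated genes with reads in all groups, at 5.08 ± 0.20 with the control hairpin (adjusted p = 7.84e-27) and 4.0 ± 0.17 with the TAF7 hairpin (adjusted p = 7.86e-26). OAS2 followed at 3.42 ± 0.25 and 2.49 ± 0.27 (adjusted p = 5.63e-17 and 2.47e-11). OAS1 ran the other way, at -1.74 ± 0.25 and -3.34 ± 0.27 (adjusted p = 4.66e-08 and 2.93e-15), and so did USP18, at -1.90 ± 0.21 and -2.07 ± 0.23 (adjusted p = 5.07e-11 and 8.13e-11). IFIT1, IFIT2, OASL, DHX58, IRF1, STAT2, MX2, ISG20 and PARP14 were higher in LM2 with the control hairpin, were lower with shTAF7 in LM2, and were not called between the lines with the TAF7 hairpin. The higher and the lower calls of these genes rest on the same LM2 control libraries. IFIT2 for example was 2.20 ± 0.094 with the control hairpin (adjusted p = 1.63e-25) and -0.078 ± 0.11 with the TAF7 hairpin (adjusted p = 0.541). IFIH1, IFI44 and IFI6 were higher in LM2 with the control hairpin and lower in LM2 with the TAF7 hairpin. The share of all tested genes with this combination, or with that of IFIT1 to PARP14, was not counted. IFIH1 was 1.25 ± 0.14 and -0.84 ± 0.15 (adjusted p = 1e-10 and 2.46e-06), IFI44 was 0.64 ± 0.087 and -0.63 ± 0.086 (adjusted p = 1.05e-08 and 1.37e-08), and IFI6 was 0.59 ± 0.16 and -0.58 ± 0.16 (adjusted p = 0.00114 and 0.00203). For RSAD2, the LM2 controls were at least 14.7-fold higher than the parental controls, taking 3 reads per library as the floor. For CMPK2 they were at least 1.88-fold higher on the same floor. Line calls that ended on leaving out 1 library were those of IFIT5, MX2 and IFITM1 with the control hairpin, and of HERC5, HERC6, IFI35, IFITM1, PARP9 and RSAD2 with the TAF7 hairpin.

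**Figure D4:**
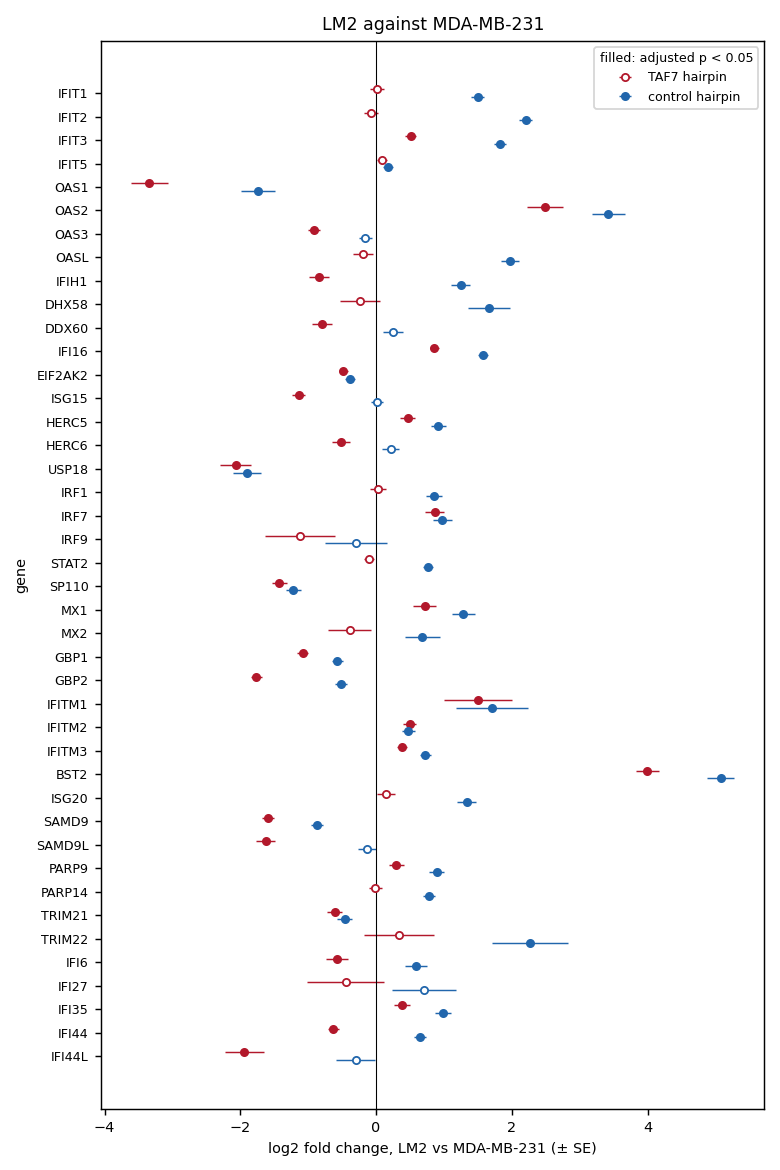
Log2 fold change of LM2 against parental MDA-MB-231 for 42 tested genes, with the TAF7 hairpin (red) and the control hairpin (blue); bars are standard errors, filled points passed an adjusted p of 0.05, and RSAD2 is left out. For most genes the red point lies to the left of the blue one, and BST2, OAS2, OAS1 and USP18 are far from 0 with both hairpins.

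Upstream of these genes, interferon transcripts were close to absent. Of 10 interferon genes looked up, IFNA1, IFNA2, IFNA5, IFNB1, IFNE, IFNK, IFNG and IFNL2 had 0 reads in every library, for which 3 reads per library is the limit. IFNL1, a type III interferon, had 5 and 3 reads in LM2 controls and 0 in the other 6 libraries. IFNL3 had 1 read, in LM2 shTAF7 replicate 3. The receptor gene IFNAR1 had 48.8 and 46.4 CPM in parental shTAF7 and 61.9 and 62 CPM in parental controls, against 47.3 and 42.5 CPM in LM2 shTAF7 and 50.1 and 52.2 CPM in LM2 controls. It was lower with shTAF7 in parental cells (-0.38 ± 0.078, adjusted p = 0.000214) and missed the threshold in LM2 (-0.19 ± 0.08, adjusted p = 0.0529). IFNAR2 had 0 to 4 reads, and 44.2% of its exon bases also belong to a read-through gene on the same strand, so its level is uncertain.

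JAK1, the kinase of both receptor types, was lower with shTAF7 in LM2 (-0.35 ± 0.077, adjusted p = 0.000263) and not called in parental cells (-0.14 ± 0.076, adjusted p = 0.191). TYK2, the kinase bound to IFNAR1, was higher in parental cells (0.27 ± 0.071, adjusted p = 0.00298) and not called in LM2 (0.12 ± 0.069, adjusted p = 0.174). For type II interferon, IFNGR2 changed by 0.25 ± 0.088 in parental cells and -0.32 ± 0.10 in LM2 (adjusted p = 0.0284 and 0.00781), and IFNGR1 by -0.0062 ± 0.081 and -0.48 ± 0.088 (adjusted p = 0.978 and 1.56e-05). TMEM50B, on the opposite strand with 3310 reads over all libraries, overlaps 12.8% of the exon bases of IFNGR2, so its level is uncertain too.

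Over the 71 other genes of the pathway that were looked up, 54 were tested. With shTAF7, 11 were higher (20.4%) and 9 lower (16.7%) in parental cells, where 12.6% and 12.9% of all tested genes were. In LM2, 7 were higher (13%) and 20 lower (37%), where 21.8% and 19.4% of all tested genes were. The median change of the 54 genes was 0.040 in parental cells and -0.19 in LM2. Among regulators, IRF3, the factor that switches on interferon genes, had 62.2 and 69.8 CPM in parental shTAF7 and 57.2 and 55.1 CPM in parental controls, against 61.6 and 65.4 CPM in LM2 shTAF7 and 75.4 and 76.1 CPM in LM2 controls. It followed the direction of most interferon-stimulated genes, by 0.23 ± 0.076 in parental cells (adjusted p = 0.0187) and -0.25 ± 0.075 in LM2 (adjusted p = 0.00524). BCL2L12, on the opposite strand with 9230 reads over all libraries, overlaps 19.3% of the exon bases of IRF3. Whether counting used strand is not known, so the level of IRF3 is uncertain. IRF2, mainly a repressor of the response element, was higher in parental cells (0.43 ± 0.10, adjusted p = 0.000736) and not called in LM2 (0.043 ± 0.10, adjusted p = 0.756), and IRF5 was lower in LM2 (-0.72 ± 0.22, adjusted p = 0.00768) and not called in parental cells (0.19 ± 0.17, adjusted p = 0.454). IKBKE, a kinase of IRF3 that interferon induces, had 10.2 and 11 CPM in parental shTAF7 and 10.1 and 10.6 CPM in parental controls, against 7.37 and 10.8 CPM in LM2 shTAF7 and 17.9 and 16.9 CPM in LM2 controls. Like IFIT2 it was high in LM2 controls, at -0.94 ± 0.14 in LM2 (adjusted p = 2.71e-07). Its relative TBK1 went the other way in LM2 (0.35 ± 0.071, adjusted p = 8.18e-05) and missed the threshold in parental cells (0.18 ± 0.072, adjusted p = 0.0571). TLR3, the endosomal sensor of double-stranded RNA, was lower in LM2 (-0.82 ± 0.22, adjusted p = 0.00253) and not called in parental cells (0.30 ± 0.18, adjusted p = 0.238).

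Inhibitors of the pathway moved in several directions. SOCS3, which blocks JAK kinases, had 48.3 and 49.5 CPM in parental shTAF7 and 51.1 and 50.8 CPM in parental controls, against 52.4 and 61.1 CPM in LM2 shTAF7 and 38.8 and 37.7 CPM in LM2 controls. It was higher with shTAF7 in LM2 (0.57 ± 0.082, adjusted p = 2.04e-07) and was not called in parental cells (-0.059 ± 0.081, adjusted p = 0.656). A link of SOCS3 to the 45 genes was not tested. PTPN6 (SHP-1), a phosphatase of JAK and STAT proteins, had 14 and 16.5 CPM in parental shTAF7 and 9.31 and 8.17 CPM in parental controls, against 0.447 and 1.32 CPM in LM2 shTAF7 and 1.05 and 1.11 CPM in LM2 controls. It was higher with shTAF7 in parental cells (0.81 ± 0.16, adjusted p = 0.000105) and low and not called in LM2 (-0.27 ± 0.38, adjusted p = 0.606). ADAR, which edits the cell's own double-stranded RNA so that MDA5 does not sense it, had 154 and 142 CPM in parental shTAF7 and 196 and 195 CPM in parental controls, against 137 and 128 CPM in LM2 shTAF7 and 157 and 176 CPM in LM2 controls. ADAR was lower with shTAF7 in both lines, by -0.40 ± 0.07 in parental cells (adjusted p = 2.15e-05) and -0.33 ± 0.071 in LM2 (adjusted p = 0.000178), with no call on the difference (adjusted p = 0.643).

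Further interferon-stimulated genes outside the 45 numbered 25 tested. With shTAF7 in parental cells, 5 of them were higher (20%) and 4 lower (16%), where 12.6% and 12.9% of all tested genes were. In LM2, 4 were higher (16%) and 11 lower (44%), where 21.8% and 19.4% of all tested genes were. The median change of the 25 was 0.0145 in parental cells and -0.0901 in LM2, beside 0.312 and -0.577 for the 43 genes. The largest changes were those of low-count genes. GBP5, a guanylate-binding protein of the inflammasome, had 2.45 and 1.32 CPM in parental shTAF7 and 1.25 and 2.01 CPM in parental controls, against 0.279 and 0.422 CPM in LM2 shTAF7 and 2.20 and 2.01 CPM in LM2 controls. It was lower in LM2 shTAF7 by -2.56 ± 0.46 (adjusted p = 1.08e-05) and overlapped between the parental groups. GBP4, another member of that family, had 0 and 1 reads in parental shTAF7 and 0 and 1 in parental controls, against 6 and 10 in LM2 shTAF7 and 58 and 30 in LM2 controls. It was lower in LM2 shTAF7 by -2.47 ± 0.47 (adjusted p = 3.32e-05). LGALS9, a galectin induced by interferon, had 0.408 and 0.585 CPM in parental shTAF7 and 0.520 and 0.224 CPM in parental controls, against 0.391 and 0.634 CPM in LM2 shTAF7 and 2.64 and 1.45 CPM in LM2 controls, and was lower in LM2 shTAF7 by -1.98 ± 0.46 (adjusted p = 0.000475). PECAM1, an endothelial marker, moved in the same directions as the 13 genes above, at 0.75 ± 0.20 in parental cells (adjusted p = 0.0037) and -1.70 ± 0.28 in LM2 (adjusted p = 2.89e-06). The fibroblast marker PDGFRB changed by -0.46 ± 0.23 and -1.75 ± 0.26 (adjusted p = 0.143 and 3.75e-07). The 3 endothelial markers together had 121 to 139 reads per library in parental shTAF7 and 64 to 86 in parental controls, against 27 to 33 in LM2 shTAF7 and 70 to 83 in LM2 controls. The 3 fibroblast markers had 52 to 70 reads in parental shTAF7 and 76 to 83 in parental controls, against 21 to 33 in LM2 shTAF7 and 86 to 87 in LM2 controls. PDGFRB was the only fibroblast marker with enough reads to be tested, and PECAM1 was 1 of 2 endothelial ones. The other endothelial marker changed by 1.75 in parental cells and by -0.457 in LM2, neither called. The part of other cells in the results was not tested.

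**Figure D5:**
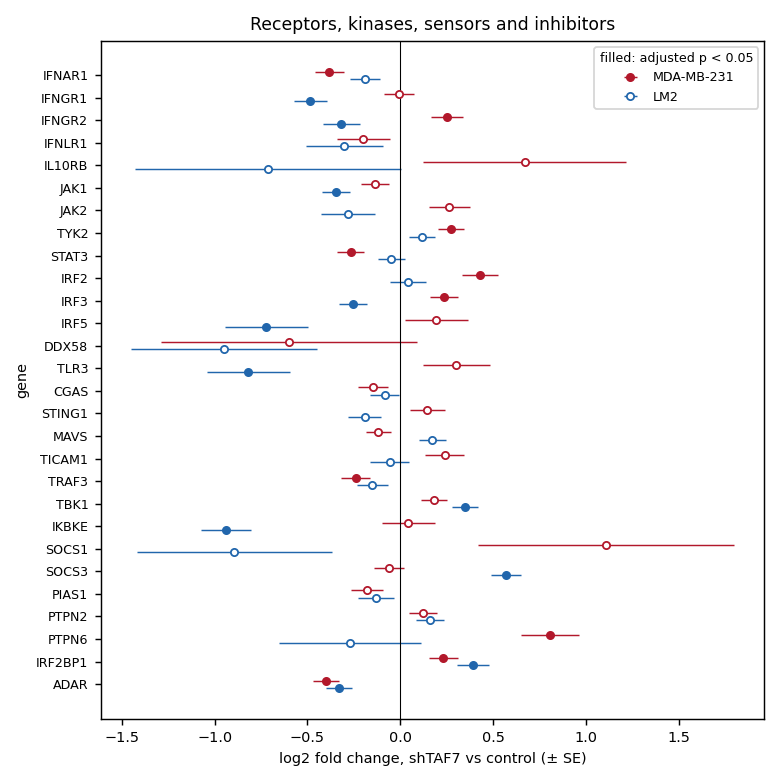
Log2 fold change of shTAF7 against control for receptors, kinases, transcription factors, sensors and inhibitors of the pathway outside the 45 genes, in parental MDA-MB-231 (red) and LM2 (blue); bars are standard errors and filled points passed an adjusted p of 0.05. ADAR lies left of 0 in both lines, SOCS3 lies right of 0 in LM2, and IKBKE and TLR3 lie left of 0 in LM2.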

How the data were processed

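Gene counts and FPKM of 8 libraries were deposited by the authors, as raw read counts and as FPKM (per kilobase of gene and depth of library), per the file headers and values. STAR 2.7.10a and hg19 appear in the submitters' processing notes, while counter, annotation and strandedness were not given in the sources used here. Per the labels, the libraries came by mRNA enrichment from total RNA of cells kept in serum medium. Count over FPKM followed the library totals within 0.000172% in 4721 genes checked, so the deposited FPKM is scaled to total assigned counts.

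Counts were tested with edgeR 4.0.16 in R 4.3.3 (low-count filter filterByExpr, TMM scaling, one mean per group over all 8 libraries with 4 residual degrees of freedom, quasi-likelihood test), with p adjusted over 15923 genes by the Benjamini-Hochberg method. CPM use the TMM library sizes, and ± is a standard error. DESeq2 1.42.0, RLE size factors, no filter, fits on 4 libraries, a replicate block, leaving out each library, and limma-trend (limma 3.58.1) on log2(FPKM + 1) or log2(FPKM + 0.1) were the alternatives. Counting error alone sets the floor of 3 counts per library for genes at 0. The scripts were tested on simulated data. Libraries of a group differed beyond sampling noise (chi-square over its degrees of freedom 2.289 to 6.968), so none was counted as a duplicate.

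The 45 genes, their 10 role groups and the pathway list were chosen with earlier results of these data known. All 45 are named, and up to 4 per role group are given by library, those called for shTAF7 in either line with the largest change. Outside the 45, up to 3 genes per class were named by the same measure, at 1 CPM or more in some group. Chromosomes and exon overlaps are from GENCODE 29 and promoter sequences from RefSeq (GRCh38.p14); gene levels were not joined to these by coordinates, since the builds differ. Items of the pathway and marker lists that are withheld are not reported here, but stay in the counts over the lists.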

Additional observations from a re-analysis of the deposited data

Results flagged for a closer look

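The effect of the TAF7 hairpin differed between the lines for 29 of the 43 tested interferon-stimulated genes, by a direct test of the LM2 change minus the parental change in edgeR (adjusted p under 0.05). All values below are that difference on the log2 scale, and a negative one means that the LM2 change was below the parental change. It does not require a fall in LM2. GBP1, IFITM3, BST2, PARP9 and IFI44L were higher with shTAF7 in parental cells and not called in LM2. Among the IFIT and oligoadenylate synthetase genes the differences were IFIT1 (-1.48), IFIT2 (-2.28), IFIT3 (-1.32), OAS1 (-1.60), OAS3 (-0.76) and OASL (-2.16). Among the sensors they were IFIH1 (-2.08), DHX58 (-1.91), DDX60 (-1.04) and IFI16 (-0.72). For the ISG15 system they were ISG15 (-1.15), HERC5 (-0.45) and HERC6 (-0.73), and for the transcription factors IRF1 (-0.82) and STAT2 (-0.87). The GTPases gave MX2 (-1.07), GBP1 (-0.51) and GBP2 (-1.25), and the membrane factors IFITM3 (-0.34) and BST2 (-1.08). The remaining called genes were ISG20 (-1.19), SAMD9 (-0.72), SAMD9L (-1.49), PARP9 (-0.59), PARP14 (-0.80), IFI6 (-1.17), IFI35 (-0.60), IFI44 (-1.27) and IFI44L (-1.64).

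Outside the 45 genes, TAF7 itself differed (0.34), falling less in LM2. Of the 54 tested pathway genes outside the 45, 22 had a called negative difference (40.7%) and 8 a positive one (14.8%). Among all tested genes 11.9% were called negative and 13.9% positive. Among those given with values in the report, the negative differences were UBA7 (-1.94), GBP5 (-2.75), LGALS9 (-2.39), IKBKE (-0.98), TLR3 (-1.12), PTPN6 (-1.08), IRF5 (-0.92), IRF2 (-0.39), IRF3 (-0.49), IFNGR1 (-0.48) and IFNGR2 (-0.57). SOCS3 had a positive one (0.63). The endothelial marker PECAM1 (-2.46) and the fibroblast marker PDGFRB (-1.30) also differed. With 2 libraries in each group no library was examined as an outlier of its group.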

How the results depend on the processing

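In the alternatives that gave a value no called gene among the 43 changed direction: 15 were run, but the fit on 4 libraries gives no difference between the hairpin effects, which leaves 14, and RSAD2 also had 14 between lines with the TAF7 hairpin, with a value of 0 and no call without LM2 shTAF7 replicate 3. Of the calls, 9 of 21 in parental cells, 21 of 29 in LM2, 31 of 35 between lines with the control hairpin, 24 of 30 with the TAF7 hairpin and 24 of 29 of the differences were kept in every alternative that gave a value; in parental cells these were IFIH1, IFI16, GBP1, GBP2, IFITM2, IFITM3, ISG20, PARP9 and IFI44. With DESeq2 the parental calls of OAS1, DDX60, ISG15, TRIM21 and IFI44L ended. So did the LM2 calls of IFIT5, OAS1, DHX58, RSAD2, IFI27 and IFI35. Losses given gene by gene in the results are mainly those on leaving out a library, and other settings also ended some calls. Of the genes not called, 9 turned sign in some alternative in parental cells and 5 in LM2, none to an opposite call. The count of 2 higher in LM2 was 1 with DESeq2, without the low-count filter, with only the 4 LM2 libraries, with the replicate block and with limma on log2(FPKM + 1) or log2(FPKM + 0.1), and 1 to 3 on leaving out single libraries. The count higher in parental cells was 13 to 21 on leaving out single libraries. The median line difference with the TAF7 hairpin was -0.227 to -0.0478 on leaving out single libraries. With limma on log2(FPKM + 1), which shrinks low genes by construction, the medians were 0.199 in parental cells, -0.398 in LM2, 0.499 between lines with the control hairpin and -0.539 for the difference. With log2(FPKM + 0.1) the median of all genes shifted to -0.128 in LM2 and -0.104 for the difference, against which the medians of the 43 genes were -0.641 and -0.883. The deposited FPKM is scaled to library totals without TMM factors. Those factors were 0.9599 and 0.9346 in LM2 shTAF7, 1.032 and 1.039 in LM2 controls and 0.9969 to 1.018 in parental libraries.

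The replicate numbers did not pair the libraries (correlations of deviations -0.073 to 0.03 between groups); with the replicate block 22 genes were higher in parental cells and 28 lower in LM2. The direct difference was no longer called for BST2 without parental control replicate 3 (-0.61, adjusted p = 0.282) or shTAF7 replicate 2 (-0.86, adjusted p = 0.118) and was -1.82, adjusted p = 0.00361 without parental control replicate 2. For IFITM3 it ended without LM2 shTAF7 replicate 2 (-0.17, adjusted p = 0.16) or parental control replicate 2 (-0.32, adjusted p = 0.0703). For HERC5 it ended without any of 5 libraries (-0.47 to -0.26, adjusted p 0.0553 to 0.26) and for MX2 without any of 6 (-1.14 to -0.80, adjusted p 0.0731 to 0.207). A group left with 1 library is assumed to vary like the others. IFI27, TRIM22 and IFITM1, at 1.53 CPM or less in every library, and RSAD2, with few reads outside the LM2 controls, are limited by depth. The cause of these shifts was not tested.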
